A study of Rattus norvegicus with 4 samples.

Results

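The comparison described here sets kidneys that went through warm perfusion with PPS against kidneys that had cold perfusion only. It rests on 2 of the 4 arrays of a rat study of kidney donation after cardiac death, chosen by their labels and not by any measured value. Both arrays hold kidney RNA of male Wistar rats of 300 to 480 g. Every kidney, on both sides, had stayed in the exsanguinated donor for 29 min of primary warm ischaemia, before a flush and 3 h of hypothermic machine perfusion in University of Wisconsin solution, an organ preservation fluid. The cold group ended there. In the PPS group, cold perfusion was followed by 30 min in an oxygenated and warm modified Krebs-Henseleit buffer, which stands in for reperfusion with blood, and PPS was present at 10 IU/ml in the cold as well as in the warm perfusate. PPS is named in the labels by these letters alone, beside low molecular weight heparin, which was the supplement of another group. The cold and PPS groups therefore differ in warm perfusion, in the later time of sampling and in PPS, and the parts of these in a difference cannot be told apart. Values of the group with warm perfusion and no supplement (the warm array) and of the heparin group, which was treated like the PPS group, are given beside them. Each group is 1 array, hybridised with an equimolar mix of the 3 kidney RNAs that were judged best in quality in that group. There were no replicate arrays, so no difference below has an error between kidneys or a p-value. The perfusion model has no blood: what leukocytes a kidney holds were there before it was flushed. In pooled whole kidney RNA, fewer cells of a type and less RNA per cell cannot be told apart.

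Kidney cells that are returned to warmth and oxygen transcribe immediate early genes, a set of transcription factors and feedback regulators whose promoters are poised and need no new protein synthesis. Their products, among them the AP-1 complex of Fos and Jun proteins, switch on a later wave of genes, while phosphatases of the Dusp family, RNA-binding proteins such as Zfp36 and inhibitors of NF-kappaB limit the signal. Chemokines that recruit neutrophils and monocytes are made in the same window. Sulfated polysaccharides such as heparin bind chemokines and coagulation factors, which is the background for testing them as perfusate supplements with possible anti-inflammatory action.

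Of 9393 genes above the floor on at least 1 of the 4 arrays, 97 were higher on the PPS array than on the cold array by 2-fold or more (1.03% of genes) and 74 were lower (0.788%), together 1.82%. The floor is the median of all values, 4.51 on the log2 scale, to which lower values were raised, and 2-fold is a log2 difference of 1. For 17 of the higher and 5 of the lower genes, 1 side was at the floor, so their folds are lower bounds. The larger differences were one-sided: 26 genes were higher by 4-fold or more and 2 were lower, and 9 genes were higher by 8-fold or more and 0 lower. The middle 50% of all differences lay between -0.16 and 0.13, and 69.6% were under 0.25 in size. Calls were most frequent among dim genes. Of 882 genes with a mean log2 value under 6, 5.44% passed the limit, and of 880 genes over 12, 0.114% did. Just inside the limit were Id1 (1.01) and Olfml3 (-1.002), and just outside it Cebpd (0.996) and Pomt1 (-0.997).

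**Figure D1:**
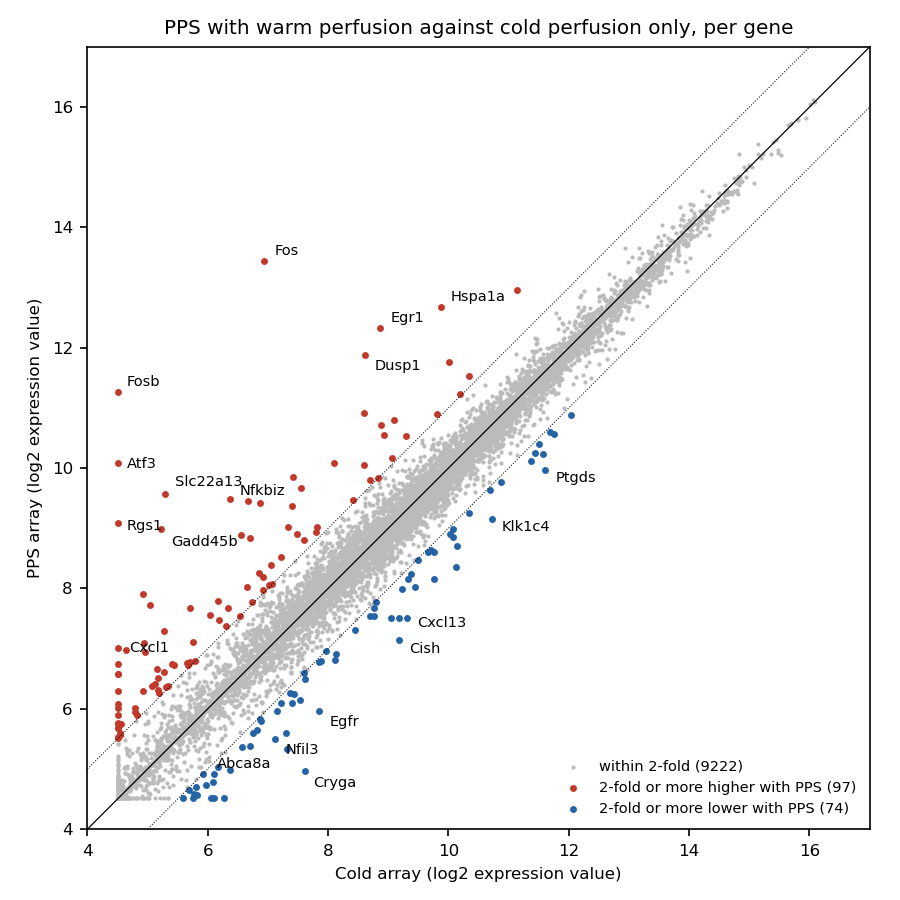
Log2 expression value of each of 9393 genes on the cold array (horizontal) and on the PPS array (vertical), 1 point per gene, with the line of equality and dotted lines at 2-fold. The 97 higher genes reach much farther from the line (Fos, Fosb, Atf3) than the 74 lower ones, and points that stack at 4.51 are at the floor on 1 array.

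Further probe sets of a gene give a measure of technical error within these arrays, but none of the spread between kidneys. Over 2759 further probe sets of genes within the limit, their difference departed from that of the chosen probe set with an SD of 0.35, and 95% of the departures were under 0.69 in size. With values below the floor raised to it, 13 of 14 further probe sets of genes called higher had the same direction and 8 passed the limit themselves, with a median of 1.20 against 1.82 for the chosen ones. Among genes called lower, 12 of 13 had the same direction but 2 passed the limit, with a median of -0.48 against -1.20. Further probe sets thus passed the limit for a smaller share of the lower than of the higher calls.

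Control transcripts stood apart between the arrays. All 24 probe sets for poly-A controls, which are spiked into RNA before labelling, were higher on the PPS array, by a median of 1.10, and all 18 for hybridisation controls were higher by a median of 0.66. Against the same cold array, the poly-A median was 1.25 on the warm and 1.28 on the heparin array. For hybridisation controls it was 0.44 and 0.15. Scaling the arrays to these controls moves the median of all genes from -0.0039 to -1.10 and -0.66. With poly-A scaling 26 genes were higher and 6597 lower, and with scaling to the hybridisation controls 39 and 854. All values below are as deposited, that is, relative to the bulk of genes. Any difference between 0 and 1.10 is smaller than the poly-A shift, and any between 0 and 0.66 is smaller than both shifts, wherever such a value is given. Where the gene was above the floor on the cold array, such a difference turns negative under that scaling. The floor was set again after scaling, so a gene at the floor can end at 0. Of 38 list medians, 17 changed sign under poly-A scaling and 16 under scaling to the hybridisation controls. The 3' probe set exceeded the 5' one by 2.79 on the cold and 3.19 on the PPS array for beta-actin, by 0.60 and 0.81 for GAPDH, and by 4.99 and 5.03 for hexokinase; a wider gap is a sign of less intact RNA. The part of spike-in level and RNA quality in the differences below was not tested.

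The AP-1 transcription factors were the group farthest above the cold array. Of 7 analysed AP-1 and ATF genes 5 were higher by 2-fold or more (1.03% of all genes were), with a median log2 difference of 2.13 against -0.0039 over all genes. Log2 values of Fos were 6.93 (cold) and 13.44 (PPS), a 91.2-fold difference. On the warm and heparin arrays Fos read 14.70 and 14.08, so the PPS value was the lowest of the 3 warm-perfused arrays and still far above cold. Its relative Fosb was at the floor without warm perfusion and read 11.27 on the PPS array, at least 108-fold higher, against 13.47 (warm) and 12.18 (heparin). Atf3, a stress-induced repressor of the same family, likewise at the floor on that array, read 10.08 with PPS, at least 47.3-fold higher, against 13.04 and 11.09. Junb read 7.54 on the cold and 9.67 on the PPS array (4.36-fold higher), and Jun 11.14 and 12.96 (3.52-fold). The 2 further probe sets of Jun differed by 1.40 and 1.91. Jund differed by 0.69, and Maff was at the floor on the cold, heparin and PPS arrays and read 6.07 on the warm array.

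Among Egr, Nr4a and Klf factors the differences ran from -0.40 (Ets2) to 3.46 (Egr1). Of 15 analysed genes 6 were higher by 2-fold or more and 0 lower (1.03% and 0.788% of all genes). The median of 0.48 was smaller than the shift of either kind of control. Egr1, a zinc finger factor induced by serum and by stress, read 8.87 on the cold and 12.33 on the PPS array (11.01-fold), with 14.02 on the warm and 13.02 on the heparin array. The nuclear receptors Nr4a2 and Nr4a1 were 7.93-fold and 6.85-fold higher. Nr4a2 read 4.92 on the cold and 7.91 on the PPS array, and Nr4a1 6.67 and 9.45. Klf4 (3.99-fold), Klf6 (3.56-fold) and Klf2 (3.26-fold) were the Krueppel-like factors past the limit. The other 9 members were within the limit, among them Klf10 at 0.98, Hes1 at 0.48, Klf5 at 0.46, Srf at 0.44 and Klf9 at 0.12. Egr2 was at the floor on both the cold and the PPS array while it read 9.55 on the warm and 7.29 on the heparin array. Nr4a3 was above the floor on the warm array alone (7.52), and Myc read 6.06 on the cold, 6.06 on the PPS and 7.59 on the warm array. Within this family the PPS array thus held Egr1 at several-fold its cold value and Egr2 at the floor.

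In the list of feedback genes, Dusp1, Zfp36, Ier2 and Ier3 were above the cold array, and Cish, described with the lower genes, was below it. The other analysed Dusp and Spry genes were within the limit, from -0.71 (Spry4) to 0.96 (Dusp2). Of 18 MAP kinase and messenger RNA feedback genes 4 were higher by 2-fold or more and 1 lower, beside 1.03% and 0.788% of all genes, with a median of 0.28 that turns negative after scaling to either kind of control. Dusp1, a phosphatase that inactivates MAP kinases, read 8.61 on the cold and 11.88 on the PPS array (9.64-fold), and its further probe set differed by 2.71. Zfp36, which binds AU-rich messenger RNAs of cytokines and speeds their decay, read 8.60 and 10.91 (4.94-fold), and Ier2 6.71 and 8.83 (4.36-fold). Ier3 differed by 1.09, or -0.0064 after poly-A scaling. Of 12 Gadd45 and p53-linked genes 3 were higher (again beside 1.03% of all genes), Gadd45b (13.6-fold, 5.23 to 8.99), Plk2 (2.56-fold) and Gadd45g (2.14-fold). Cdkn1a, the p53 target that encodes the cell cycle inhibitor p21, read 6.94 on the cold and 6.85 on the PPS array against 8.82 on the warm array. The G-protein signalling brakes Rgs1 (at least 23.7-fold) and Rgs2 (5.46-fold, with 3.07 for its further probe set) and the Ras-like GTPase Rasd1 (6.46-fold) were the 3 of 11 signalling genes past the limit, beside 1.82% of all genes in either direction.

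**Figure D2:**
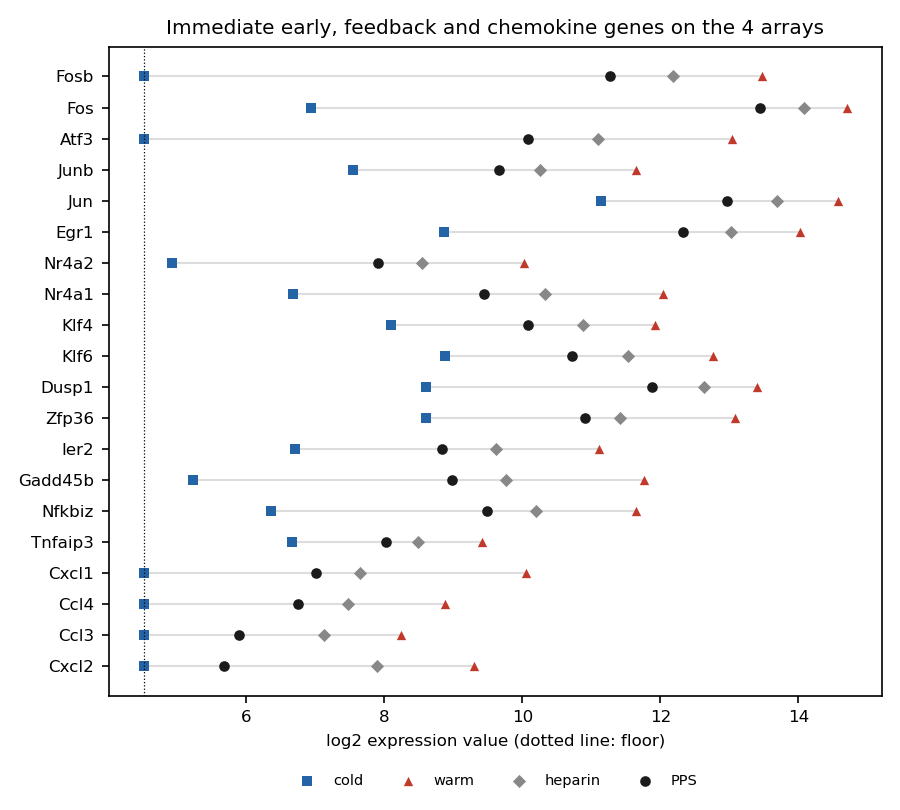
Log2 expression value of 20 immediate early, feedback and chemokine genes, all 2-fold or more higher on the PPS than on the cold array, on each of the 4 arrays (squares cold, triangles warm, diamonds heparin, circles PPS), with the floor as a dotted line. In all 20, picked by hand from the higher genes, the levels run in the order cold, PPS, heparin, warm.

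The level order cold, PPS, heparin, warm held in the 20 plotted genes, in 42 of the 97 higher genes (43.3%) and in 584 of all 9393 (6.22%). The plotted genes were picked by hand from the higher genes, with values of these data known, so 20 of 20 is not a rate. Being higher with PPS fixes that the cold value lies below the PPS value. Bcl3 and Ccn1, also higher but not plotted, break the order. For Bcl3 the PPS value (6.77) was the highest of the 4, and for Ccn1 heparin (7.06) lay below PPS (9.42). Over the 97 higher genes the median difference from the cold array was 1.36 with PPS, 1.90 on the warm and 1.49 on the heparin array. Over the 74 lower genes the medians were -1.19, -0.99 and -1.09. These 3 comparisons share the cold array, and the genes were picked on the PPS values, so the medians are side by side as a description.

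Promoter sequences are shown for 4 of these genes because the data place them at 4-fold or more above the cold array and their windows hold sites of signal-responsive factors. They are RefSeq sequences of assembly GRCr8 of 300 bases around each gene's start, most of them upstream, 5′ to 3′ on the gene's strand, with the matched letters in capitals. Egr1 lies at chr18:26736828-26737127 (+ strand) and holds 2 CArG boxes, the core that serum response factor binds, with first bases at -105 and -83. Dusp1 lies at chr10:17184603-17184902 (+ strand) and holds the cAMP response element TGACGTCA at -124. Cxcl1 lies at chr14:17479272-17479571 (- strand) and holds a kappaB site, matched on both strands with overlapping first bases at -84 and -83. Zfp36 lies at chr1:92799059-92799358 (- strand) and holds a CArG box at -32.
Egr1: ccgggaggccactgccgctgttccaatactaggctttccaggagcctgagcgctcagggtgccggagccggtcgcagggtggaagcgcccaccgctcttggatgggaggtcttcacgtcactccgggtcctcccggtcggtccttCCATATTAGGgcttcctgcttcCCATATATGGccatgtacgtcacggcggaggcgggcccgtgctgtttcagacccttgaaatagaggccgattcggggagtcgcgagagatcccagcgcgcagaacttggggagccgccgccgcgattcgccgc
Dusp1: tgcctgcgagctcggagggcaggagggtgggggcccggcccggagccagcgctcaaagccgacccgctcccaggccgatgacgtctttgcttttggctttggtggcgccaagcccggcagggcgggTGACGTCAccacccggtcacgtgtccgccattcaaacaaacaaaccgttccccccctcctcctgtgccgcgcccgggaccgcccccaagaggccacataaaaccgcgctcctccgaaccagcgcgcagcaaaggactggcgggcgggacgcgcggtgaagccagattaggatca
Cxcl1: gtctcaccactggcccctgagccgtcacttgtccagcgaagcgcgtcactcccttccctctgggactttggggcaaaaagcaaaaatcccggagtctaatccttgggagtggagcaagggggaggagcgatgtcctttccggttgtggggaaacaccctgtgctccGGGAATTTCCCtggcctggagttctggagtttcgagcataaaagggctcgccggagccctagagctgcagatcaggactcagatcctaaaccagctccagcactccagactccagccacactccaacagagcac
Zfp36: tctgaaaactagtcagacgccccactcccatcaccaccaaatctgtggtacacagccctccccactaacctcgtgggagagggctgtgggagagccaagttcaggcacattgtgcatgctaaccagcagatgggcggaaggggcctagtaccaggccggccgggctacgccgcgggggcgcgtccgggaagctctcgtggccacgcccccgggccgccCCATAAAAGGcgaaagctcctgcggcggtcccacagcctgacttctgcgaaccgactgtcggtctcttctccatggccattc

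Motifs were searched on both strands in the promoters of 82 of the 97 higher and 59 of the 74 lower genes that have an entry, and in those of 7893 analysed genes. TGACGTCA was in 5 higher promoters (6.10%), 1 lower promoter (1.69%) and 3.28% of the analysed genes, and its core TGACG was in 34.1%, 18.6% and 33.9%. The CArG box was in 4 higher promoters (4.88%), 0 lower and 1.52% of all analysed. The kappaB consensus was in 9 higher promoters, 3 lower (5.08%) and 5.04% of all analysed, the higher ones including Nfkbiz, Tnfaip3, Irf1, Cxcl2 and Bcl3. TGANTCA, the AP-1 site, was in 6 (7.32%), 7 (11.9%) and 5.18%. The interferon-stimulated response element core was in 4 (4.88%), 0 and 3.13%, and the heat shock element in 1 (1.22%), 0 and 0.481%. A match describes letters in a window of 300 bases and shows no binding.

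The neutrophil chemokines Cxcl1 and Cxcl2 and the macrophage chemokines Ccl3 and Ccl4 were above the cold array by 2-fold or more. Of 16 analysed chemokine and cytokine genes these 4 were higher and 0 lower, beside 1.03% and 0.788% of all genes. The list's median of 0.25 was smaller than the shift of either kind of control. All 4 lay at the floor with cold perfusion only. Cxcl1 read 7.01 with PPS (at least 5.62-fold higher), 10.05 on the warm and 7.64 on the heparin array. Ccl4 read 6.75 (at least 4.70-fold), Ccl3 5.89 (at least 2.60-fold) and Cxcl2 5.67 (at least 2.23-fold). For Cxcl2, the warm and heparin arrays read 9.30 and 7.89, so that this neutrophil chemokine lay nearer to the floor with PPS than on either. Cxcl10, an interferon-inducible chemokine, differed by 0.96 with PPS (4.97 cold, 5.93 PPS) and read 9.86 on the warm array. Ccl20 and Tnf were at the floor on the cold and PPS arrays, and the monocyte chemokine Ccl2 differed by -0.60. The cytokines Il1b and Il18 differed by 0.82 and 0.70. On the same 16 genes the warm array had 9 past the limit and the heparin array 6, where 2.48% and 1.17% of all genes were higher in those comparisons.

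In the NF-kappaB list, 5 cofactors, feedback regulators and targets were above the cold array by 2-fold or more. They stand among 14 analysed genes, of which 0 were lower (1.03% of all genes were higher and 0.788% lower), with a median of 0.018 that turns negative after scaling to either kind of control. Nfkbiz, a nuclear NF-kappaB cofactor, read 6.36 on the cold and 9.48 on the PPS array (8.70-fold). Tnfaip3, the ubiquitin-editing enzyme A20, was 2.57-fold higher, Zc3h12a, an endonuclease that degrades cytokine messenger RNA, 2.56-fold, the cofactor Bcl3 2.17-fold and Cd83 2.05-fold, the last of these negative (-0.061) after poly-A scaling. Nfkb1, Nfkb2 and Rela differed by -0.19, -0.27 and 0.02, and the inhibitors Nfkbia, Nfkbib and Tnip1 by 0.38, -0.28 and 0.016. Interferon response genes were mostly within the limit: 1 of 19 was higher, the transcription factor Irf1 (2.31-fold, 7.59 cold and 8.80 PPS), and the median of 0.10 turns negative under both scalings. Oasl, an interferon-induced oligoadenylate synthetase-like protein, read 5.15 on the cold and 4.76 on the PPS array against 8.82 on the warm array.

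In each stress response list 1 or 2 members passed the limit, beside 1.82% of all genes in either direction (1.03% higher and 0.788% lower). Of 16 heat shock genes 2 were higher and 0 lower, with a median of -0.10. Hspa1a, the inducible HSP70, read 9.87 on the cold and 12.68 on the PPS array (6.99-fold); it has a near-identical copy, Hspa1b, from which a probe set may not separate it. Hspb1, a small heat shock protein, was 2.16-fold higher, and Dnajb1 differed by -0.03. Among 16 genes of the unfolded protein and stress-translation pathways 1 was higher, Ppp1r15a, a phosphatase subunit that lets translation resume, at 3.93-fold, and the median was -0.27. The endoplasmic reticulum chaperones Pdia4 and Hsp90b1 differed by -0.88 and -0.40. Hyou1, a chaperone of the same compartment outside that list, differed by 1.06, which turns negative after poly-A scaling. Of 22 hypoxia and glycolysis genes 1 was higher, the vasodilator peptide gene Adm (2.43-fold), and glycolytic Ldha and Pgk1 differed by -0.09 and -0.04. The NRF2 and glutathione list had 0 higher and 1 lower of 16, Gsr, glutathione reductase, which read 9.44 on the cold and 8.02 on the PPS array (2.66-fold lower), against 8.16 and 7.82 on the warm and heparin arrays. Ptgs2, the inducible cyclooxygenase, was 2.64-fold higher and the only 1 of 7 vasoactive genes past the limit.

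Growth factor, tubular injury and metabolic genes gave mixed values. In the EGF receptor and injury list 2 of 16 were higher and 1 lower, beside 1.03% and 0.788% of all genes. Its median of 0.29 turns negative under both scalings. Areg, an EGF receptor ligand, was 2.45-fold higher (5.13 cold, 6.42 PPS) and Krt19, a keratin of injured tubules, 2.33-fold, while the receptor Egfr was 3.70-fold lower (7.85 and 5.96). A further probe set of Egfr differed by 0.08, so both measurements of this gene disagree. Ccn1, a matricellular early-response gene, read 6.87 on the cold, 9.42 on the PPS and 10.99 on the warm array but 7.06 on the heparin array, and Id1, a BMP target, differed by 1.01, or -0.088 after poly-A scaling. These were the 2 of 17 TGF-beta, BMP and Ccn genes past the limit, beside 1.82% of all genes in either direction. Pdk4, which restrains pyruvate oxidation, was 3.95-fold higher and the lipase inhibitor Angptl4 at least 2.95-fold; the median of the 15 fatty acid genes was 0.0050, which turns negative under both scalings. Slc22a13, a urate and organic anion transporter of the tubule, read 5.29 (cold), 6.10 (warm), 9.26 (heparin) and 9.57 (PPS). It was 19.4-fold higher with PPS and thus high on both arrays with a supplement. The other 24 proximal tubule genes stayed within the limit.

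Of the 26 genes higher by 4-fold or more, 20 belong to the lists. The other 6, chosen after their values were seen, were Slpi, a secreted protease inhibitor (5.05-fold), the potassium channel subunit Kcnab1 (5.04-fold), the bicarbonate transporter Slc4a10 (4.46-fold), Nrn1l (at least 4.20-fold), the chemokine receptor Cxcr4 (at least 4.17-fold) and Csrnp1, an immediate early nuclear protein (4.09-fold). Slpi and Slc4a10 read higher on the PPS array (8.89 and 7.09) than on the warm array (8.24 and 6.83).

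The clock list was the only one of those examined with several members past the limit in both directions. Cells keep time through a loop in which Clock and Bmal1 drive the Per, Cry and Nr1d genes, whose products shut that drive down, while Dbp and Nfil3 act in opposition on shared sites. Of 17 analysed clock genes 3 lay above and 3 below the limits, 35.3% against 1.82% of all genes, with a median of -0.04. Nr1d1, a repressor of Bmal1, read 4.96 on the cold and 6.95 on the PPS array (3.96-fold), with 7.38 on the warm and 6.59 on the heparin array. Per3 read 6.17 on the cold and 7.79 on the PPS array (3.08-fold), and 6.79 on both others. Dbp read 7.22 and 8.53 (2.48-fold), with 7.75 on the warm and 7.19 on the heparin array. Nr1d2 differed by 0.81, which turns negative after poly-A scaling. In the other direction, Nfil3 read 7.12 on the cold and 5.50 on the PPS array (3.09-fold lower), although the warm array read 8.26. Per2 was 2.34-fold lower (10.08 and 8.85) and Cry1, a further repressor of the loop, 2.03-fold lower (6.86 and 5.84). Bmal1 differed by -0.75. Per1, a Per gene that is also an early-response gene, read 4.54 on the cold and 4.55 on the PPS array against 6.74 on the warm array. The PPS array was the highest of the 4 in 5 of the 17 clock genes and the lowest in 7, against 17.5% and 21.0% of all genes, a count made after the values were seen. The labels used here give no time of day for the kidneys.

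**Figure D3:**
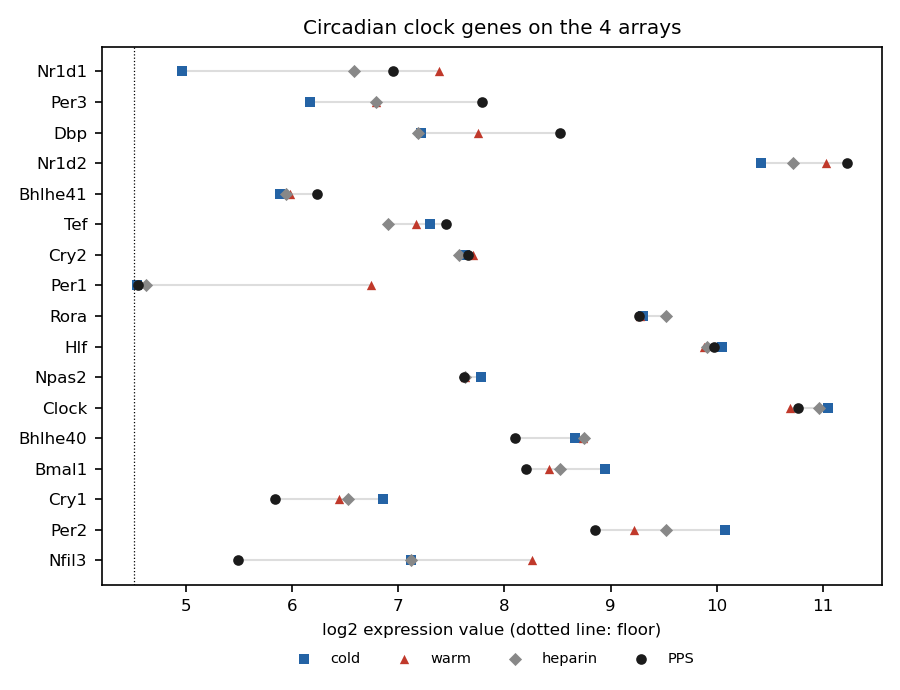
Log2 expression value of the 17 analysed circadian clock genes on each of the 4 arrays (squares cold, triangles warm, diamonds heparin, circles PPS), ordered by PPS minus cold, with the floor as a dotted line. The PPS circles lie at the high end for Per3, Dbp and Nr1d2 and at the low end for Nfil3, Per2, Cry1 and Bmal1; the small positive differences, Nr1d2 included, turn negative after poly-A scaling.

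Genes lower with PPS than on the cold array were fewer in the lists, 13 of 74 against 47 of the 97 higher genes. Their differences were smaller. The share of all genes in the lists was not counted. Cryga, a lens crystallin gene, had the largest (6.27-fold, 7.62 to 4.97). Its further probe set lay near the floor on the cold array and below it on the PPS array, so it gives only a bound (-0.23). Cish, an inhibitor of cytokine receptor signalling induced by STAT5, read 9.17 on the cold and 7.14 on the PPS array (4.09-fold lower), and its further probe set was below the floor with PPS, so that its difference of -2.005 is a bound. On the warm array Cish read 8.49 and on the heparin array 6.85, so the low values were those of the supplemented kidneys. The chemokine Cxcl13, which attracts B cells, was 3.50-fold lower and read 9.31 (cold), 8.94 (warm), 7.61 (heparin) and 7.50 (PPS). S100a4, a calcium-binding protein of fibroblasts and leukocytes, was 3.20-fold lower and read 9.18, 9.49, 8.08 and 7.50 in the same order. Akr1b1, aldose reductase, which makes sorbitol in the renal medulla, read 11.56 and 11.53 on the cold and warm arrays and 10.23 on both others (2.52-fold lower). For these 4 genes, the heparin and PPS arrays were on the same side of the warm array.

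Further lower genes included Abca8a, a lipid transporter (3.97-fold), Gp2, a relative of uromodulin (3.42-fold), the nucleotidase Nt5c (3.26-fold), Ptgds, prostaglandin D synthase (3.10-fold), and the kinase Dapk2 (3.02-fold). Gp2 and Ptgds were also low on the warm array, at 8.78 and 10.25 against 10.13 and 11.60 on the cold array. Abca8a was at the floor on the warm array. Nt5c and Dapk2 read 7.02 and 8.82 there, against 7.30 and 9.76 on the cold array. The kallikrein Klk1c4 was 2.95-fold lower (10.72 and 9.16), read 8.93 on the warm array and was at the floor on the heparin array. Kallikreins are near-identical copies that a probe set may not separate. With PPS at the floor, Grhl1, a grainyhead transcription factor, was at least 3.38-fold lower, Pik3r1, a regulatory subunit of phosphoinositide 3-kinase, at least 3.02-fold, Sh3d21 2.92-fold, Fancd2os 2.37-fold and the guidance receptor Robo3 2.11-fold, each as a lower bound. Grhl1, Sh3d21 and Fancd2os were at the floor on the warm and heparin arrays as well. Pik3r1 and Robo3 were at the floor on the heparin array and read 4.88 and 4.81 on the warm array. Akr1b8, another aldo-keto reductase, was 2.33-fold lower with PPS (8.13 to 6.91) and read 10.62 on the heparin array; probes may be shared within that family as well. Akr1b1 and Akr1b8 were the 2 of 15 aldo-keto and drug metabolism genes past the limit, beside 1.82% of all genes in either direction. That list had a median of -0.31.

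**Figure D4:**
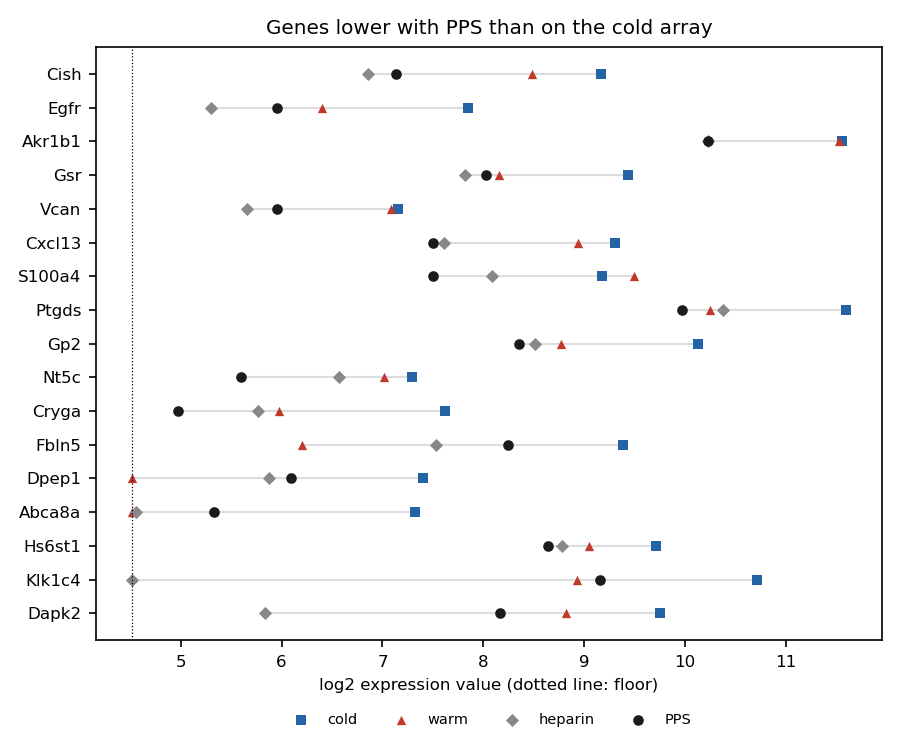
Log2 expression value of 17 genes that were 2-fold or more lower on the PPS than on the cold array, on each of the 4 arrays (squares cold, triangles warm, diamonds heparin, circles PPS), with the floor as a dotted line. For Cish, Cxcl13, S100a4, Akr1b1 and Vcan the warm triangle lies near the cold square, and for Fbln5, Dpep1 and Abca8a it is the lowest of the 4.

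Interstitial collagens and contractile cell markers were within the limit with PPS. Of 18 analysed genes for collagens and their processing 0 were past the limit with PPS, beside 1.82% of all genes in either direction. Their median of 0.018 turns negative under both scalings. That list also holds the basement membrane collagens Col4a1 and Col4a2. On the same 18 genes 7 were lower on the warm and 2 on the heparin array, where 1.16% and 0.916% of all genes were lower. Col1a1, Col1a2 and Col3a1, the fibrillar collagens of the kidney interstitium, read 8.38, 9.97 and 9.31 on the cold array and 8.79, 10.01 and 9.53 with PPS, against 7.08, 8.54 and 8.29 on the warm array. Farthest from the cold array were Col6a2 (-0.85), Col6a1 (-0.83) and Col12a1 (-0.61). Of 12 elastic fibre and matricellular genes 1 was lower with PPS (0.788% of all genes were). It was Fbln5, an elastic fibre assembly protein, which read 9.38 on the cold, 8.24 on the PPS, 7.54 on the heparin and 6.20 on the warm array. Smoc2, a matricellular protein, read 8.13 on the cold and 8.99 on the PPS array but 5.17 on the warm array. The pericyte, smooth muscle and fibroblast list had 0 higher and 1 lower of 12, Dpep1, a dipeptidase that proximal tubules also express (2.48-fold, with -0.52 for its further probe set), and a median of -0.47, beside -1.24 on the warm and -0.74 on the heparin array. The summed linear level of that list was 8280 on the cold, 6906 on the PPS, 4921 on the heparin and 4017 on the warm array, while Tagln, Myh11 and Pdgfrb, a muscle actin-binding protein, a smooth muscle myosin and the pericyte growth factor receptor, differed by -0.63, -0.52 and -0.56, and the smooth muscle actin Acta2 by -0.08. The list shares the 3 fibrillar collagens above, and Cnn1, Des, Rgs5, Cspg4 and Notch3 were at the floor on all 4. The part of the number of such cells in the pools was not tested.

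Proteoglycan and heparan sulfate genes, whose products carry and build the tissue's own relatives of heparin, were mostly within the limit. Among all genes 1.03% were higher and 0.788% lower. Of 16 core protein genes 1 was lower, Vcan, the large chondroitin sulfate proteoglycan versican (2.30-fold, 7.16 to 5.96), with -0.95 for a further probe set, and the median was -0.03. Another probe set was below the floor with PPS. The warm array read 7.08 and the heparin array 5.66. Of 13 listed heparan sulfate and hyaluronan enzymes 1 was lower, Hs6st1, a 6-O-sulfotransferase (2.09-fold, 9.71 to 8.64), with a median of -0.02. Hs3st6, a heparan sulfate sulfotransferase outside that list, was higher, with a difference of 1.14. The syndecans Sdc1 and Sdc2 differed by 0.11 and -0.11. Complement had 1 of 8 higher, the membrane inhibitor Cd55 (2.42-fold, 6.92 to 8.19), and C3 differed by 0.41, which turns negative under both scalings.

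**Figure D5:**
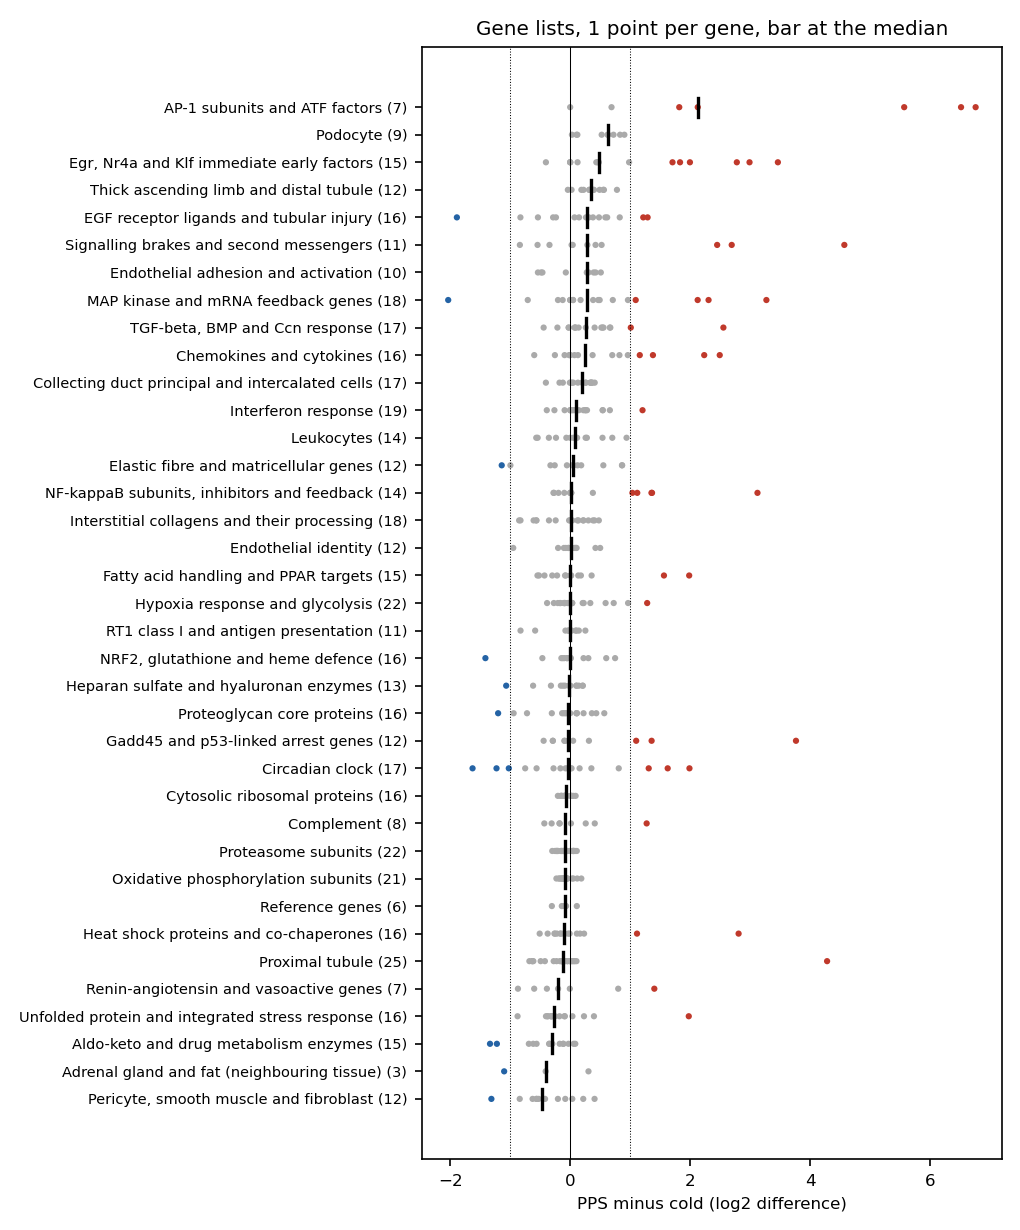
PPS minus cold (log2 difference) of the analysed members of each gene list with at least 3, 1 point per gene, with the median as a bar, the number of genes in brackets and dotted lines at 2-fold. Points past the limit gather in the AP-1, Egr, feedback, chemokine and NF-kappaB lists on the right and in the clock list on both sides. Medians between 0 and 0.66 are smaller than the shift of either kind of control.

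Markers of kidney segments were present, as the labelled tissue requires, and within the limit apart from Slc22a13. Of 26 proximal tubule markers on the array, 25 were above the floor, with a median of -0.12 and the sodium-glucose transporter Slc5a2 at -0.63. All 9 podocyte markers had positive differences as deposited, with a median of 0.62 and Nphs1, nephrin, at 0.90 (8.94 to 9.84). That median turns negative after scaling to either kind of control. In the thick ascending limb and distal list 11 of 12 differences were positive, with a median of 0.35 and the sodium-calcium exchanger Slc8a1 at 0.78, and in the collecting duct list 13 of 17 were, with a median of 0.20 and Foxi1, the intercalated cell factor, at 0.41. These medians are negative under both scalings, and Slc8a1 is negative under poly-A scaling alone. Endothelial identity markers had a median of 0.0056, with Vwf, von Willebrand factor, at -0.95. Endothelial adhesion genes had a median of 0.28, with Vcam1 at -0.54 and 0 of 10 past the limit, beside 1.82% of all genes. Both medians are negative under both scalings.

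Of 26 leukocyte markers 14 were above the floor, with a median of 0.073 (negative under both scalings) and Itgax at 0.94, and their summed linear level was 44848 on the cold and 44676 on the PPS array. The macrophage genes Cd68 and Cd163, the neutrophil genes S100a8 and S100a9 and the T-cell genes Cd3d, Cd4 and Cd8a were at the floor on all arrays. Haemoglobin Hbb differed by -0.63 and Alas2 was at the floor. Of 16 adrenal and fat markers 3 were above the floor, with summed levels of 6111 and 4738, and Car3 was 2.14-fold lower, while Adipoq, Lep, Plin1 and Cyp11b1 were at the floor. None of 7 urothelial markers was above it. The list of RT1 class I and antigen presentation genes, some of them near-identical copies, had 0 of 11 past the limit, beside 1.82% of all genes. Within it RT1-CE5 differed by -0.83, with 0.0054 for its further probe set. Outside that list, RT1-T24-3 was past the limit, with a difference of 1.51. The housekeeping lists were tight. Ranges were -0.23 to 0.19 for 21 oxidative phosphorylation genes, led by Uqcrc2, -0.20 to 0.09 for 16 ribosomal proteins, led by Rps3, and -0.30 to 0.11 for 22 proteasome subunits, led by Psmd4. Of 6 reference genes, Ywhaz had the largest difference (-0.31).

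The PPS array stood 2-fold or more above each of the 3 other arrays in 2 genes and below each in 3, the fewest of the 4 arrays (cold 28 and 64, warm 93 and 12, heparin 4 and 10). The genes above were Mki67, a proliferation marker (6.29 on the PPS array, 4.93, 5.11 and 5.23 on the cold, warm and heparin arrays), and Per3. The genes below were Nfil3, Slfn4, a Schlafen family gene (7.54 against 8.76, 10.02 and 8.89), and Mtrf1, a mitochondrial release factor (4.59 against 5.78, 6.01 and 5.78). Per3 had identical values on the warm and heparin arrays, and Nfil3 and Mtrf1 each had identical values on the cold and heparin arrays. The reason for these ties was not tested. Cdk1, the mitotic kinase, read 5.94 on the PPS array and 4.80, 4.63 and 5.44 on the others, and Cks2, its binding subunit, 7.56 against 6.04, 8.52 and 7.47. Mki67 and Cdk1 had values under 6 on 3 and 4 of the arrays, near the floor, where calls were most frequent.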

How the data were processed

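RNA pools of 4 groups were measured on Affymetrix rat arrays, 1 array per group, labelled from 6 ug of total RNA. The deposited table holds 1 log2 value per probe set and array, made by the authors with GCRMA per the submitters' processing notes (version not given in the sources used here); that the scale is log2 was inferred from the range of values. GCRMA equalises the arrays' distributions, so a change in total messenger RNA would not be seen, and it sets dim probe sets to one lowest value (27.1% on the cold and 27.0% on the PPS array). Of 31099 probe sets, 57 controls, 436 with several symbols and 9780 unnamed ones were left out; symbols were updated to RefSeq GRCr8, in which 20758 of 20826 were found. For each of 14217 genes the probe set brightest on average was kept, and values were raised to the 50th percentile (4.51). Python 3.11.15 with pandas 2.3.3 and numpy 2.4.6 was used. The size rule was tested on simulated data with a noise level set in advance, which gives no error rate for these arrays. No p-value was computed. Named genes are the 12 largest differences per direction measured on both arrays, the 5 largest bounds per direction, up to 5 past the limit per list (or its largest member), and genes in which the PPS array stood apart; other genes were chosen after their values were seen. The comparison, the 39 lists and the rules were chosen with earlier results of these data known. Alternatives were other floors, probe set choices, scalings and size limits.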

Additional observations from a re-analysis of the deposited data

Results flagged for a closer look

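The 3 genes below moved past the limit in opposite directions in comparisons that share the cold array; these differences were not tested. Nfil3 differed from the cold array by -1.63 with PPS and by 1.14 on the warm array. Slfn4 differed by -1.22 with PPS and by 1.26 on the warm array. Akr1b8 differed by -1.22 with PPS and by 2.50 on the heparin array. Outside the genes analysed, 78 of 3203 unnamed probe sets above the floor were higher on the PPS than on the cold array by 2-fold or more (2.44%) and 32 were lower (0.999%). The spiked controls were higher on the PPS than on the cold array as well, by a median of 1.10 for poly-A and 0.66 for hybridisation controls. On the warm and heparin arrays these medians were 1.25 and 1.28 for poly-A, and 0.44 and 0.15 for hybridisation controls.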

How the results depend on the processing

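The counts were 97 higher, 74 lower, and 2 and 3 genes with the PPS array above and below all others. A floor at the 60th percentile gave 49, 41, 1 and 1, poly-A scaling 26, 6597 and 0 above, scaling to hybridisation controls 39, 854, 0 and 19, a limit of 1.5-fold 327, 301, 15 and 17, and a limit of 4-fold 26, 2, 0 and 0. Without a floor 5 genes were below all others, with a floor at the 40th percentile 4 were above, and with the mean of all probe sets 1 was above. The other floors, probe set choices and the centred or quantile-normalized arrays kept the higher count between 83 and 114 and the lower between 57 and 88. Poly-A scaling turned Ier3 (-0.0064), Cd83 (-0.061) and Id1 (-0.088). Of 75 named genes past the limit, 75 stayed past it under quantile normalization, 48 under poly-A and 56 under hybridisation scaling. With the mean of all probe sets 63 of 72 did, and with a floor at the 60th percentile 49 of 68. No paired analysis was possible because each group has 1 array, and for the same reason no sample could be left out. Signal over background limits the dim genes.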
